A study of Mus musculus with 24 samples.

Results

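Hematopoietic stem cell identity genes are genes whose transcripts or proteins are used to recognise blood-forming stem cells or that keep those cells in the stem cell state. A list of 32 of them was matched by symbol among the 55414 gene identifiers of the count files, and all 32 were found and were abundant enough to be tested. They were followed in 24 RNA sequencing libraries of LSK cells, which are bone marrow cells that lack lineage antigens and carry the surface proteins Sca-1 and Kit. The cells were sorted from leg and hip marrow of mouse pups on postnatal day 21. The 4 groups were female pups of control dams, female pups of Western-diet dams, male pups of control dams and male pups of Western-diet dams (6 libraries each). Per the labels there were 3 batches, and every batch had 2 libraries from each group. Dams were C57BL/6J mice fed regular chow (2018SX) as control or a Western diet (TD.88137) meant to induce obesity, before mating and on through pregnancy and lactation. Every pup had therefore been exposed to its dam's diet before and after birth. Dams and litters are not named in the labels. The p-values therefore take the spread among libraries as the error, and some libraries may come from 1 litter.

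Stem cells are a small minority of LSK cells, and most of the gate is made of multipotent progenitors that have left the stem cell state. Stem cells are usually told from those progenitors by high EPCR (Procr) and CD150 (Slamf1) and by low CD48 and CD34, and they are kept quiescent by transcription factors such as HLF and MECOM and by niche signals such as angiopoietin-1 acting on TIE2. In such bulk RNA, fewer cells of a type and less RNA per cell cannot be told apart.

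The upstream windows of 3 of the 5 members that changed with maternal diet in females are shown here, because these genes passed the test and the table used holds windows for them. They are from RefSeq on the GRCm38.p6 build, span the 250 bases before a transcription start, and are written 5′ to 3′ on the strand of the gene with matches to the E-box CAGNTG, searched on both strands, in capitals. The Mecom window is chr3:30509760-30510009 on the minus strand, the Mllt3 window is chr4:88033408-88033657 on the minus strand and the Eng window is chr2:32646345-32646594 on the plus strand. For Mecom and Mllt3 the table holds 2 windows each, and the one of the start farther upstream is shown. The other Mecom window held no E-box and the other Mllt3 window held 1. The bases just after the start of the Mllt3 window shown were found in 0 GENCODE transcripts of that gene. Those after the start of the other Mllt3 window were found in 1. Only exact matches were counted, so the search cannot tell whether GENCODE holds a start close to the one shown.
Mecom: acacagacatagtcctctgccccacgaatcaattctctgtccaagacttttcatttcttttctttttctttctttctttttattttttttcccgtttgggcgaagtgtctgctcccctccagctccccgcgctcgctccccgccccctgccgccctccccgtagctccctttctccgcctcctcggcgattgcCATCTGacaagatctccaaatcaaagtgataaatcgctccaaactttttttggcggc
Mllt3: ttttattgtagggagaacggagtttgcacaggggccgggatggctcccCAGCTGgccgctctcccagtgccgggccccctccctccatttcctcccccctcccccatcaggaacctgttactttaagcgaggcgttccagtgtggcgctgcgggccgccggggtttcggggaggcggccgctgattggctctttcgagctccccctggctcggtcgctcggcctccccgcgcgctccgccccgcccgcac
Eng: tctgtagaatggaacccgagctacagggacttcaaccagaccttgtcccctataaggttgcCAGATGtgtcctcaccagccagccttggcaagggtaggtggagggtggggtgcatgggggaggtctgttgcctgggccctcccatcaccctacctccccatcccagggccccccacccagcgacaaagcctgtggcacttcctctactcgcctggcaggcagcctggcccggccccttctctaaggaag
The RefSeq table held 32 such windows for 27 of the 32 members, and none was used for Angpt1, Plxdc2, Esam, Ly6a and Tgm2. An E-box was found in 14 of the 32 member windows, or 43.8%, beside 44.8% of all 32851 windows. The GATA motif AGATAA was found in 1 member window beside 9.99% of all windows, the ETS motif CAGGAAG in 5 (15.6%) beside 10.8%, and the RUNX motif TGTGGT in 2 (6.25%) beside 14.1%, each on both strands. These letter matches are descriptions and are not evidence of binding.

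Library totals ran from 38057263 to 51581968 counts in genes. Of the 24 libraries, the libraries labelled female control 5 and 6, both of batch 3, stood apart: on the first principal component of all genes tested they lay at -91.0 and -72.4, and no other library lay below -29.3. Together they were the lowest 2 of all 24 libraries in 10 of the 32 members (31.2%) and in 7.85% of all genes tested, and the highest 2 in 1 member, Mllt3. For diet in females, called members and those whose lowest or highest values lie in this pair are therefore given with and without it. Of the gate genes, Kit was abundant in every library. Ly6a was found in every library, at 2.14 to 39.9 CPM (counts scaled to a common library size). Among the lineage antigens, Ly6g had a count of 0 in 20 libraries, and Cd3e stayed at or below 1.252 CPM. These genes alone do not show how pure the sort was. The whole list of 7 lineage antigens was not absent: it summed to 162 to 398 CPM in control females and 76.0 to 186 CPM in Western-diet females, and 1 of its 6 genes tested was called, lower in Western-diet females.

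Levels of the members were compared with each other as RPKM, that is CPM per kilobase of exon, averaged over the 24 libraries. The most abundant were Cd48, a SLAM receptor that rises on progenitors, at 131 RPKM, Cd34, a sialomucin, at 81.1 RPKM, and Kit, the stem cell factor receptor, at 60.1 RPKM. Then came Ltb, the lymphotoxin beta ligand, at 36.1 RPKM, Eng, the TGF-beta co-receptor endoglin, at 31.6 RPKM and Angpt1, the TIE2 ligand, at 28.2 RPKM. Genes used as narrow stem cell markers lay lower. Hlf reached 10.4 RPKM, Procr 4.13 RPKM, Mecom 1.75 RPKM, Fgd5 0.817 RPKM and Slamf1 0.814 RPKM. The lowest were Ghr, the growth hormone receptor, at 0.258 RPKM, Abcb1a, a drug efflux pump, at 0.153 RPKM, and Neo1, a netrin and RGM receptor with 5 to 45 counts a library, at 0.0559 RPKM. With group and batch terms in the model, the members' median biological coefficient of variation was 0.211 beside 0.248 over all genes tested. It measures the spread left within group and batch, and the genes were not matched by level. Ltb and Ly6a had the widest ranges among the members, 35.7-fold and 18.6-fold between the lowest and the highest library.

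**Figure D1:**
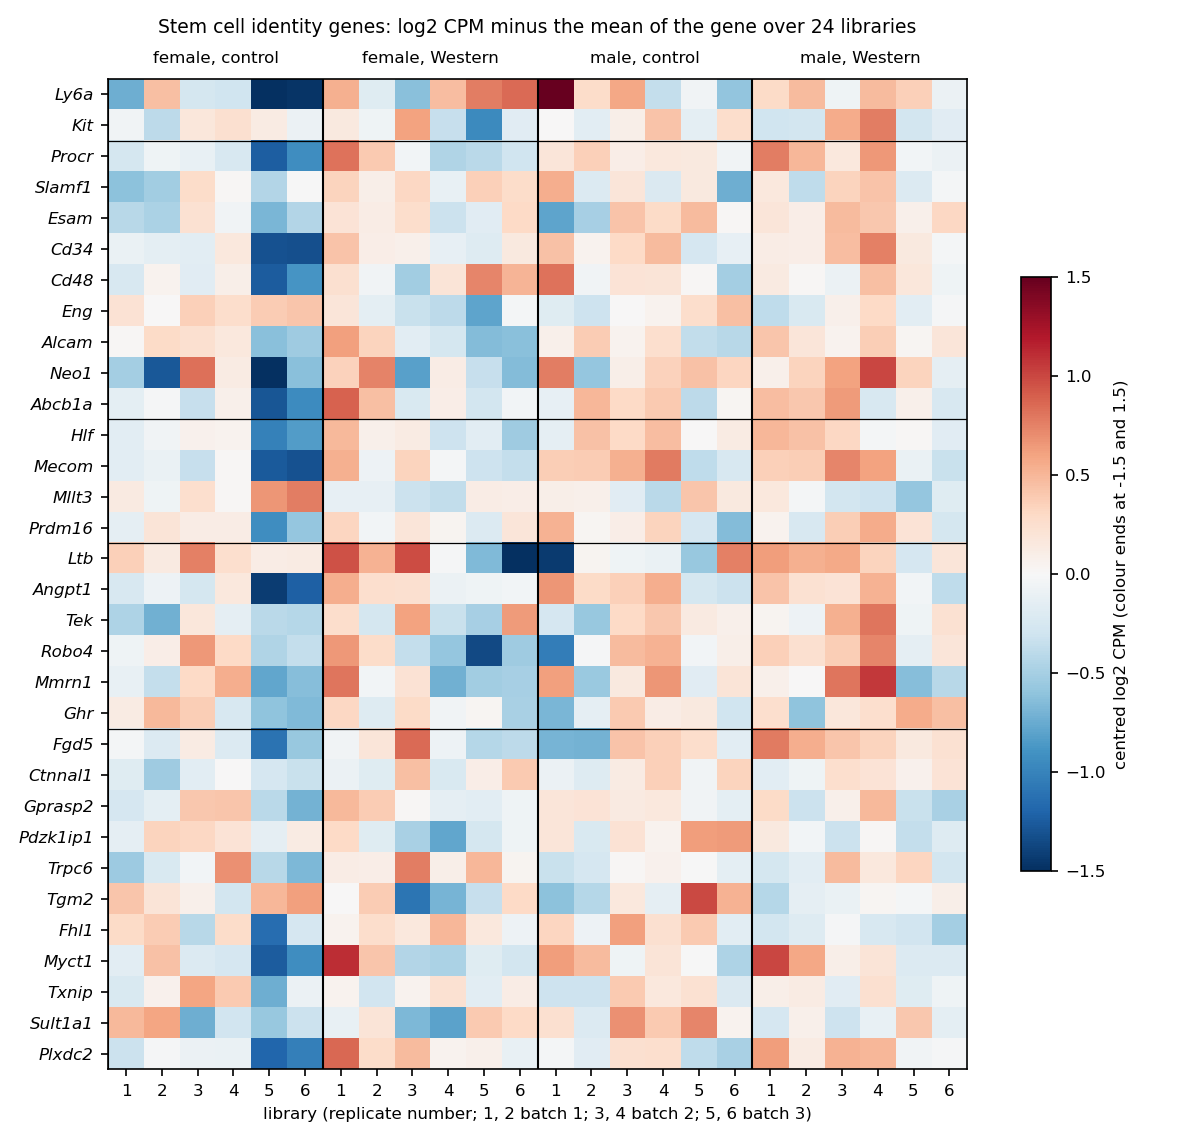
Each cell of the heat map is 1 library's log2 CPM for 1 member minus that gene's mean over 24 libraries, with columns ordered by group and replicate number and rows by role; the colour scale ends at -1.5 and 1.5. The columns of female control 5 and 6 are blue in most rows and red in the Mllt3 row, and 10 members had their lowest 2 libraries there.

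The effect of maternal diet was tested within each sex, in females first. Western-diet female pups had more transcript of Plxdc2, Angpt1 and Mecom and less of Eng and Mllt3 than female pups of control dams. These 5 of 32 members, 15.6%, passed an adjusted p of 0.05 (edgeR quasi-likelihood test, Benjamini-Hochberg over all 19616 genes tested), beside 5.42% of all genes. Of the members, 3 were higher and 2 lower, beside 2.20% of all genes higher and 3.22% lower. The members' log2 fold changes were positive in 22 and negative in 10, with a median of 0.31 beside 0.03 over all genes, and 17 members (14 higher, 3 lower) had an unadjusted p under 0.05, as did 21.3% of all genes. In no member were the groups free of overlap, beside 0.469% of all genes with all Western-diet females above all control females and 0.714% below. Without female control 5 and 6 no member passed, beside 0.763% of all genes, and 5 members had an unadjusted p under 0.05, beside 12.0% of all genes.

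Plxdc2, which encodes a plexin-domain membrane protein, had the smallest p of the members. It ranged from 6.30 to 14.2 CPM with a median of 12.4 in control females and from 13.3 to 26.2 CPM with a median of 16.3 in Western-diet females. All but 1 of the Western-diet females lay above every control female, and the 2 lowest values were those of control libraries 5 and 6. The mean rose from 11.0 ± 3.47 to 17.8 ± 4.72 CPM (SD, n = 6 each), a fitted log2 fold change of 0.74 with a standard error of 0.14 and an adjusted p of 0.0026 by edgeR. Leaving out 1 library at a time kept Plxdc2 past the threshold in 24 of 24 fits. Without both control libraries the log2 fold change was 0.58 with an adjusted p of 0.0833.

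Angpt1 encodes angiopoietin-1, a ligand that stem and progenitor cells make themselves. Control females ran from 52.2 to 156 CPM with a median of 117, and Western-diet females from 131 to 204 CPM with a median of 150. Control libraries 5 and 6 were again lowest, 3 Western-diet libraries lay above all controls, and the groups overlapped. The mean rose from 106 ± 41.3 to 156 ± 28.3 CPM (SD, n = 6 each), a log2 fold change of 0.64 ± 0.14 (SE) with an adjusted p of 0.0080 by edgeR. Without both control libraries it was 0.42 with an adjusted p of 0.189. The exons of Angpt1 share 14.2% of their bases with Gm17473 on the other strand, and the library kit does not mark strand, so reads of these 2 genes cannot be told apart there.

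Mecom, the zinc finger transcription factor EVI1 that stem cells need for self-renewal, ranged from 8.29 to 20.8 CPM with a median of 17.2 in control females. In Western-diet females it ranged from 16.04 to 29.6 CPM with a median of 19.7. Only 2 Western-diet libraries lay above every control, but all 6 lay above the control mean. The mean rose from 15.2 ± 5.46 to 21.2 ± 5.39 CPM (SD, n = 6 each), a log2 fold change of 0.55 ± 0.13 (SE) with an adjusted p of 0.0125 by edgeR. Without female control 6 alone the adjusted p was 0.0502, and without both libraries the log2 fold change was 0.40 with an adjusted p of 0.243.

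Eng and Mllt3 fell. Eng, a co-receptor of the TGF-beta family found on long-term stem cells and endothelium, ran from 126 to 167 CPM with a median of 156 in control females and from 72.6 to 142 CPM with a median of 107 in Western-diet females. All but 1 of the Western-diet libraries lay below every control. Its mean went from 152 ± 15.2 to 108 ± 23.96 CPM (SD, n = 6 each), a log2 fold change of -0.48 ± 0.14 (SE) with an adjusted p of 0.0486 by edgeR. The call was near the threshold: it held in 8 of 24 fits that each left out 1 library, with adjusted p-values from 0.00785 to 0.126. Its size did not rest on control libraries 5 and 6, since the log2 fold change without them was -0.46 with an adjusted p of 0.283.

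Mllt3 encodes AF9, a chromatin reader of the elongation machinery that sustains human stem cells in culture. It ran from 47.0 to 83.5 CPM with a median of 56.1 in control females and from 37.9 to 52.9 CPM with a median of 44.9 in Western-diet females, and 4 Western-diet libraries lay below every control. Control libraries 5 and 6 were the highest 2 of all 24 libraries. The mean fell from 61.6 ± 15.2 to 45.4 ± 6.38 CPM (SD, n = 6 each), a log2 fold change of -0.43 ± 0.13 (SE) with an adjusted p of 0.0477 by edgeR. This call held in 11 of 24 fits that each left out 1 library, with adjusted p-values from 0.0191 to 0.147, and without both control libraries the log2 fold change was -0.28 with an adjusted p of 0.435.

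**Figure D2:**
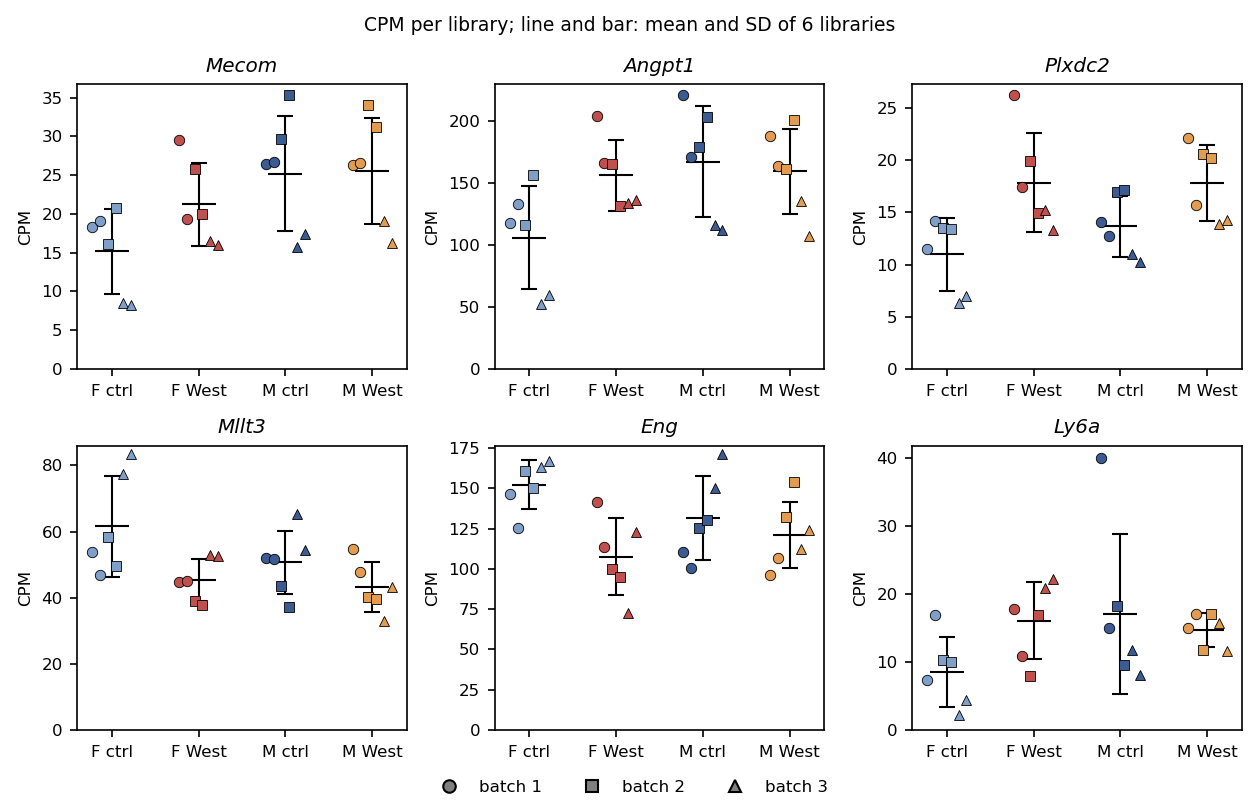
Points are CPM of single libraries in 6 members (linear axes from 0), by sex and maternal diet, with the symbol giving the batch and the line and bar the mean and SD of 6 libraries. Triangles in the first group of the Mecom, Angpt1 and Plxdc2 panels, the female control libraries of batch 3, are the lowest of their panels, and in the Mllt3 panel they are the highest.

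The 2 genes of the sort gate behaved differently from each other. Kit ranged from 397 to 615 CPM with a median of 534 in control females and from 267 to 787 CPM with a median of 479 in Western-diet females. Its log2 fold change was -0.08 ± 0.17 (SE), with an adjusted p of 0.838 by edgeR. Ly6a, which encodes Sca-1, ran from 2.14 to 16.8 CPM with a median of 8.67 in control females and from 7.95 to 22.2 CPM with a median of 17.3 in Western-diet females. Control libraries 5 and 6 were the lowest 2 of the study, 4 Western-diet libraries lay above every control, and the groups overlapped. The log2 fold change of Ly6a, 1.07 ± 0.38 (SE), was the largest of the members but did not pass (adjusted p = 0.0994 by edgeR). Without both control libraries it was 0.58 ± 0.37 (SE) with an adjusted p of 0.565.

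Among 9 surface antigens that divide LSK cells, Eng was the only member called, and 7 had positive and 2 negative log2 fold changes. Cd34 missed the threshold narrowly. It ranged from 227 to 633 CPM with a median of 510 in control females and from 494 to 763 CPM with a median of 602 in Western-diet females, a log2 fold change of 0.54 ± 0.16 (SE) with an adjusted p of 0.0515 by edgeR. Its 2 lowest control values were again those of libraries 5 and 6, and without them the log2 fold change was 0.25.

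Procr, Slamf1 and Cd48 had positive values that did not pass. Procr, the EPCR gene, ranged from 3.36 to 7.59 CPM with a median of 6.68 in control females and from 5.81 to 14.1 CPM with a median of 7.11 in Western-diet females, with a log2 fold change of 0.49 ± 0.16 (SE). Slamf1, the CD150 gene, ranged from 3.18 to 5.90 CPM with a median of 4.23 and from 4.51 to 6.24 CPM with a median of 6.00, with a log2 fold change of 0.42 ± 0.20 (SE). Cd48, which is low on stem cells, ranged from 62.8 to 158 CPM with a median of 129 and from 103 to 248 CPM with a median of 173, with a log2 fold change of 0.61 ± 0.23 (SE). The groups overlapped in each, and adjusted p-values by edgeR were 0.0766 for Procr, 0.216 for Slamf1 and 0.116 for Cd48. Without both control libraries the log2 fold changes were 0.33, 0.46 and 0.28 in that order, so the value of Slamf1 was no smaller without them. The adhesion molecule genes Esam and Alcam, Neo1 and Abcb1a had log2 fold changes of 0.39, -0.04, 0.38 and 0.62 with adjusted p-values of 0.183, 0.921, 0.617 and 0.10. Abcb1a was at 0.44 without both control libraries.

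Of the 4 transcription and chromatin genes, Mecom rose, Mllt3 fell, and Hlf and Prdm16 did not pass. Hlf, a PAR bZIP factor that marks long-term stem cells, ranged from 33.2 to 70.4 CPM with a median of 62.4 in control females and from 46.2 to 93.6 CPM with a median of 65.4 in Western-diet females. Control libraries 5 and 6 were the lowest 2 of the study, 3 Western-diet libraries lay above every control, and the groups overlapped. The log2 fold change was 0.27 ± 0.14 (SE) with an adjusted p of 0.280 by edgeR, and 0.09 without both control libraries. Prdm16, a zinc finger regulator of stem cell maintenance, had a log2 fold change of 0.28 and an adjusted p of 0.332.

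In the niche signalling group of 6 ligands and receptors, Angpt1 was the only member called. Its receptor gene Tek, which encodes TIE2, had a log2 fold change of 0.47 with an adjusted p of 0.114. The guidance receptor Robo4 was at -0.25, the secreted glycoprotein gene Mmrn1 at 0.13 and Ghr at 0.03. Ltb was at -0.18 with a standard error of 0.45, the widest of the members. Of the 11 adaptors, enzymes, channels and other markers, Plxdc2 was the only one called, 7 values were positive and 4 negative. The alpha-catulin gene Ctnnal1 was at 0.33 with an adjusted p of 0.0966, the cation channel gene Trpc6 at 0.45 with 0.125, the membrane protein gene Myct1 at 0.42 with 0.117 (0.25 without both control libraries) and the guanine nucleotide exchange factor gene Fgd5 at 0.36 with 0.354. On the negative side, the transglutaminase gene Tgm2 was at -0.44 with an adjusted p of 0.240 and the small membrane protein gene Pdzk1ip1 at -0.36 with 0.222. Gprasp2, Fhl1, Txnip and Sult1a1 lay between -0.02 and 0.27.

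**Figure D3:**
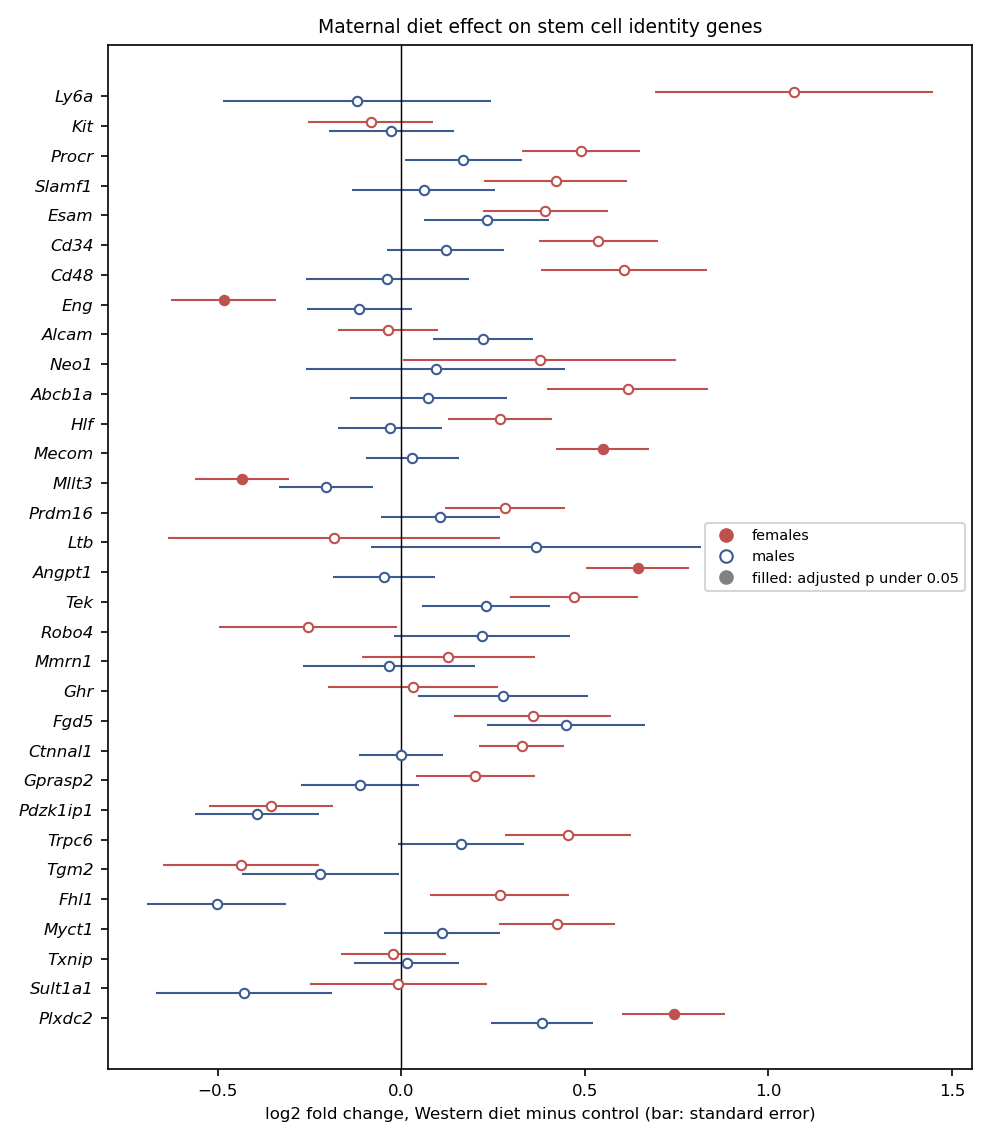
Points are fitted log2 fold changes (Western diet minus control) of the 32 members in females and in males, with bars of 1 standard error; filled points passed an adjusted p of 0.05. The filled points are Eng, Mecom, Mllt3, Angpt1 and Plxdc2 in females, and no male point is filled.

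Because the libraries came in 3 batches, the diet difference was also read within each, where it rests on 2 libraries against 2. In females 24 members were higher and 8 lower with Western diet in batch 1 (median 0.37), 11 were higher and 21 lower in batch 2 (median -0.08), and 24 were higher and 8 lower in batch 3 (median 0.56). Of all genes tested, 50.4%, 48.0% and 53.9% were higher in batches 1, 2 and 3. The positive median thus did not hold in batch 2. All 5 members called in females kept their sign in each batch. Plxdc2 differed by 0.74, 0.36 and 1.09 in batches 1, 2 and 3, Mecom by 0.36, 0.31 and 0.95, and Angpt1 by 0.56, 0.13 and 1.27. The lower genes gave -0.10, -0.68 and -0.80 for Eng and -0.16, -0.48 and -0.61 for Mllt3. Ly6a differed by 0.31, 0.20 and 2.79.

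**Figure D4:**
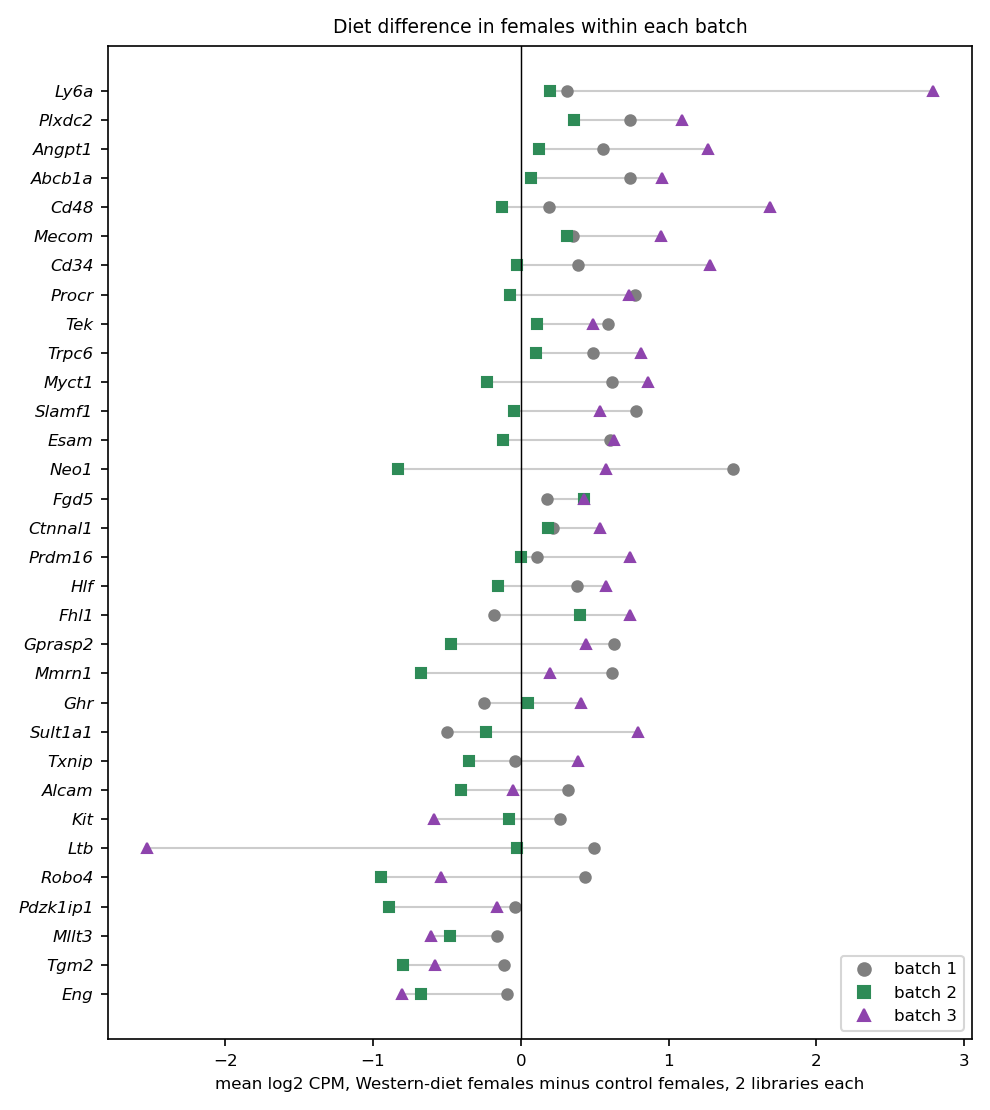
Points are differences in mean log2 CPM between Western-diet and control females, 2 libraries each, within batch 1, 2 or 3. The 32 members are ordered by their fitted log2 fold change for diet in females. Batch 3 points lie farthest to the right for most of the upper genes, with Ly6a at 2.79, and 21 of the 32 batch 2 points lie below 0.

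Without the libraries female control 5 and 6, 30 of 32 members kept the sign of their log2 fold change in females, with a median of 0.14 beside 0.01 over all genes. The signs of Kit and Ghr turned: Kit went from -0.08 to 0.04 and Ghr from 0.03 to -0.24. The smallest adjusted p of the members was then 0.0833, that of Plxdc2. Values shrank most for Cd34, Cd48 and Ly6a and stayed near those of all libraries for Eng, Tgm2, Slamf1 and Tek.

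**Figure D5:**
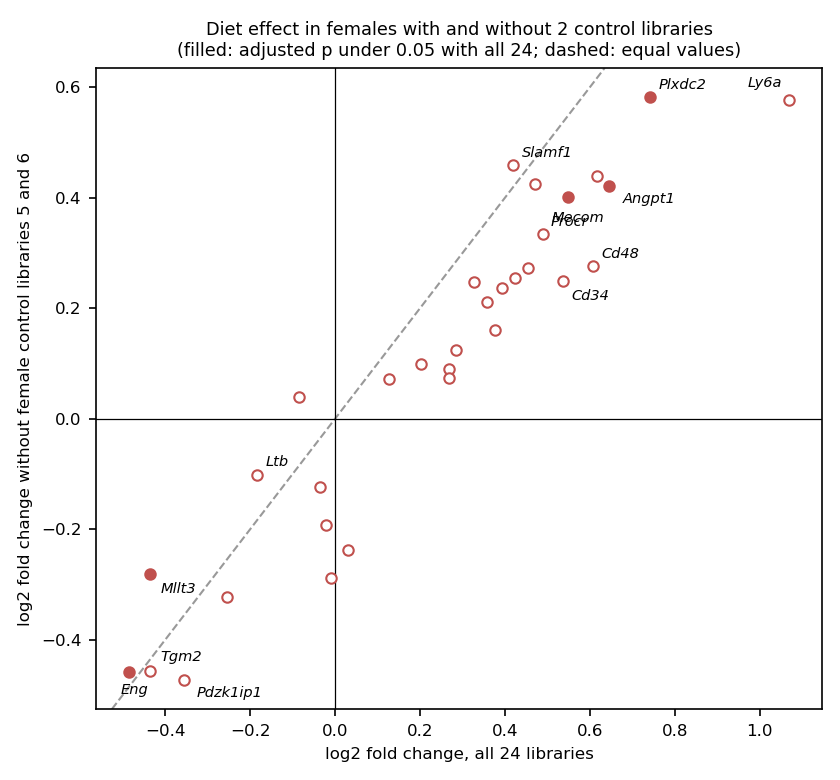
Each point is 1 member, with its log2 fold change for maternal diet in females from all 24 libraries on the x axis and from 22 libraries without female control 5 and 6 on the y axis; the dashed line marks equal values and filled points passed with all libraries. Most points on the right lie below the line, and Plxdc2 at 0.74 and 0.58 is the highest.

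In males no member passed the test for maternal diet. None of 32 passed in edgeR, beside 0.0102% of all genes, none passed in DESeq2 or in limma-voom, and 4 members had an unadjusted p under 0.05 beside 8.45% of all genes. Log2 fold changes were positive in 18 and negative in 14, with a median of 0.05 beside 0.02 over all genes. In no member were the groups free of overlap, beside 0.209% of all genes with Western-diet males all higher and 0.291% all lower. Plxdc2 had the smallest adjusted p among the members, 0.434. It ranged from 10.2 to 17.1 CPM with a median of 13.4 in control males and from 13.9 to 22.1 CPM with a median of 17.97 in Western-diet males, a log2 fold change of 0.38 ± 0.14 (SE). It was above the control mean in all 6 Western-diet males and higher in each of the 3 batches, by 0.48, 0.26 and 0.40. Mecom ranged from 15.7 to 35.3 CPM in control males and from 16.2 to 34.1 CPM in Western-diet males, a log2 fold change of 0.03 ± 0.13 (SE). Angpt1 was at -0.05, Mllt3 at -0.21 and Eng at -0.12.

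Other members had their own values in males. Ly6a ranged from 8.12 to 39.9 CPM with a median of 13.3 in control males and from 11.5 to 17.1 CPM with a median of 15.4 in Western-diet males, a log2 fold change of -0.12 ± 0.36 (SE). One control male, library 1 of batch 1, was far above the rest. Kit was at -0.03, Procr at 0.17, Slamf1 at 0.06, Cd48 at -0.04, Cd34 at 0.12 and Hlf at -0.03, none past the threshold. The LIM-domain gene Fhl1, which is X-linked, was at -0.50 with an unadjusted p of 0.0140 and an adjusted p of 0.459, and 5 of 6 Western-diet males lay below every control male. Within batches 1, 2 and 3, 19, 19 and 14 members were higher and 13, 13 and 18 lower in Western-diet males, with medians of 0.07, 0.07 and -0.02. Pdzk1ip1 was at -0.39, close to its value in females, with an adjusted p of 0.519.

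Whether diet acted differently in the sexes was tested directly. No member passed in edgeR for the male minus female difference, beside 0% of all genes called, and none passed in DESeq2 or limma-voom. With no filter on low counts 3 passed, Angpt1, Ly6a and Cd48, with adjusted p-values of 0.0232, 0.0011 and 0.0439. An unadjusted p under 0.05 was found in 4 members, beside 8.32% of all genes. These were Ly6a, Angpt1, Mecom and Fhl1, named after their values were seen, with differences of -1.19, -0.69, -0.52 and -0.77 on the log2 scale. The smallest adjusted p was 0.589, shared by Mecom, Angpt1 and Fhl1. Without female control 5 and 6 the differences were -0.75 in Ly6a, -0.48 in Angpt1, -0.38 in Mecom and -0.58 in Fhl1, each with an adjusted p of 0.940. Calls made in females and absent in males were thus not shown to differ between the sexes.

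Averaged over both sexes, 2 of 32 members passed, beside 5.70% of all genes. Of the 2, 1 was higher and 1 lower, beside 2.19% of all genes higher and 3.51% lower. Plxdc2 rose by 0.56 ± 0.10 (SE) on the log2 scale with an adjusted p of 0.0010, and Mllt3 fell by 0.32 with a standard error of 0.09 and an adjusted p of 0.0374, both by edgeR. The Plxdc2 call held without female control 5 and 6, at 0.48 with an adjusted p of 0.0097, beside 2.22% of all genes then called. That of Mllt3 did not, at -0.25 with an adjusted p of 0.172, and it held in 14 of 24 fits that each left out 1 library. Pdzk1ip1, with an average of -0.37 and an adjusted p of 0.0635, and Mecom, with 0.29 and 0.0585, came next. The average shares its libraries with both single-sex comparisons.

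Between the sexes, control males had more Mecom and Angpt1 transcript than control females. These 2 of 32 members passed, beside 0.112% of all genes (0.0867% higher and 0.0255% lower in males), and 12 had an unadjusted p under 0.05, beside 13.2% of all genes. Log2 differences (male minus female) were positive in 26 and negative in 6, with a median of 0.32 beside 0.03 over all genes. In control males Mecom had a median of 26.6 CPM and a mean of 25.2 ± 7.44 CPM (SD, n = 6), which was 0.76 ± 0.13 (SE) above control females with an adjusted p of 0.0074 by edgeR. Angpt1 ranged from 112 to 221 CPM with a median of 175, which was 0.70 ± 0.14 (SE) above control females with an adjusted p of 0.0492, a call that held in 8 of 24 fits that each left out 1 library. Next by p, and not past the threshold, were Procr at 0.62 with an adjusted p of 0.116, Hlf at 0.52 with 0.134 and Cd34 at 0.59 with 0.135. Procr ranged from 7.68 to 10.2 CPM in control males and from 3.36 to 7.59 CPM in control females. These ranges did not overlap, but the share of all genes without overlap was not counted for this comparison. Ly6a was at 1.00 with a standard error of 0.37 and an adjusted p of 0.247, Cd48 at 0.50 with 0.334, Slamf1 at 0.20 with 0.70 and Kit at 0.08 with 0.879. Without female control 5 and 6 the differences were 0.45 in Procr, 0.33 in Hlf, 0.30 in Cd34, 0.59 in Ly6a, 0.21 in Cd48, 0.23 in Slamf1 and 0.20 in Kit, each with an adjusted p of 0.981. In both Mecom and Angpt1 the libraries of batch 3 were lowest within each of these groups. Without female control 5 and 6 no member passed, beside 0.0446% of all genes. Mecom was then at 0.61 with an adjusted p of 0.341 and Angpt1 at 0.48 with 0.598. Without control male 4 alone the adjusted p of Mecom was 0.0543. This comparison shares the control females with the diet comparison in females, so both read the same 6 libraries.

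In Western-diet pups no member differed between the sexes in edgeR, DESeq2 or limma-voom, beside 0.0816% of all genes called (0.0561% higher and 0.0255% lower in males), and 3 members had an unadjusted p under 0.05 beside 6.75% of all genes. Mecom was at 0.24 and Angpt1 at 0.01 there, and the median of the members was 0.11 beside -0.0007 over all genes.

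Batch was the factor most members followed. It was called in 18 of 32 members, beside 24.2% of all genes. The batch 3 minus batch 1 difference in log2 CPM was -1.01 in Myct1, a membrane protein gene, -0.75 in Mecom, -0.72 in Angpt1, -0.72 in Abcb1a, -0.70 in Procr, -0.67 in Alcam and -0.58 in Plxdc2. Mllt3 was 0.18 higher in batch 3 than in batch 1 and 0.40 higher than in batch 2. Female control 5 and 6 are in batch 3. They were the lowest 2 of all libraries in Myct1, Mecom, Angpt1, Abcb1a, Procr and Plxdc2, and the highest 2 in Mllt3. The batch differences given here include them. The labels do not say what a batch stands for. Each batch holds 2 libraries of every group, and batch was a term of the model.

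A second list of 32 stem cell genes, which holds other regulators and markers, gave 5 higher and 2 lower calls in females, beside 2.20% of all genes higher and 3.22% lower, with a median log2 fold change of 0.23. Without female control 5 and 6 it gave 1 higher and 1 lower call, beside 0.763% of all genes called, with a median of 0.06. Among those called higher was Socs2, a cytokine signalling inhibitor, at 0.83 (adjusted p = 0.00516). Lower were Gfi1b, a repressor that also drives erythroid and megakaryocyte cells, at -1.23 (adjusted p = 0.000713), and Cd82, a tetraspanin, at -0.89 (adjusted p = 0.00196). Without the pair Socs2 was at 0.90 (adjusted p = 0.0350), Gfi1b at -1.11 (adjusted p = 0.0265) and Cd82 at -0.72 (adjusted p = 0.0609). None of the 32 was called in males. Of 15 multipotent progenitor genes, Emb rose by 0.85 and Ccr9 fell by 0.63 on the log2 scale in females (adjusted p = 0.0368 and 0.0265), with a list median of 0.37. Without the pair neither was called, at 0.44 and -0.67, and the list median was 0.15.

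Markers of other cells that a sort can hold moved too. Of 10 erythroid genes tested, 7 were called lower in females, 1 in males and 9 in the average. Of all genes, 3.22%, 0.0102% and 3.51% were called lower in these comparisons. All 10 erythroid genes had negative log2 fold changes in both sexes, with a median of -1.22 in females and -1.13 in males. Among those called lower in females were Car1, Epor and Rhag, at -1.499, -1.14 and -1.62. The 1 gene called in males was Car1, at -1.32. Without female control 5 and 6, 4 of the 10 were called lower in females, beside 0.763% of all genes called. In the average 9 were, beside 2.22%. The median of the erythroid genes in females was then -1.13. Their summed level ran from 2254 to 7599 CPM in control females and from 985 to 2758 CPM in Western-diet females, with Hbb-bs the most abundant. Of 11 B cell genes 2 were called higher in females, beside 2.20% of all genes. These were Igkc at 1.63 and Cd79b at 0.50 (adjusted p = 0.00803 and 0.0436 by edgeR). Without the pair neither was called, at 1.252 and 0.31. The summed level of the B cell list ran from 377 to 1140 CPM in controls and from 499.6 to 2182 CPM with Western diet. Several members, among them Tek, Robo4, Esam, Eng and Mmrn1, are also made by endothelium. Of 9 endothelial genes tested none was called in females, and their summed level ran from 64.1 to 87.2 CPM in controls and from 52.8 to 97.6 CPM with Western diet, with Stab2 the most abundant at a mean of 26.5 CPM. None of 10 stromal genes was called, with sums from 500.3 to 1050 CPM in controls and from 369.8 to 729 CPM with Western diet. Megakaryocyte, T and NK cell, neutrophil, macrophage and dendritic cell, and mast cell and basophil lists had no member called in females. The part of these other cells in the members' values was not tested.

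The genes whose pattern over the 24 libraries was most like the mean of the members were Inpp1, Cers4, Pglyrp2, Hgf and Gcnt2, with Pearson correlations of 0.96, 0.94, 0.94, 0.93 and 0.93. The libraries share batches and the pair that stood apart, so these values are a description only.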

How the data were processed

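LSK cells of 24 pup libraries were sequenced with a low-input polyA kit that does not mark strand. Each library has 1 file of raw gene counts deposited by the authors. The submitters' processing notes name FastQC, cutadapt, STAR, HTSeq, DESeq2 and the build GRCm39. No version, annotation release or strand setting is given in the sources used here. The closing lines of HTSeq (reads assigned to no gene), 31.0 to 39.3% of a library, were left out. Symbols, chromosomes and exon lengths came from GENCODE on GRCm38, an older build, so no gene coordinates are given, and 52081 of 55414 identifiers matched. Promoter windows came from RefSeq.

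The test was the robust quasi-likelihood test of edgeR 4.0.16 (R 4.3.3) after filterByExpr (19616 genes) and TMM scaling (0.932 to 1.05), with terms for group and batch and all 24 libraries. Tests were two-sided, and a call is a Benjamini-Hochberg adjusted p under 0.05 over all genes tested. A standard error is the log2 fold change divided by the root of F. CPM use TMM-corrected library sizes, and log2 CPM add a prior count of 2. Alternatives used RLE factors, other filters, DESeq2 1.42.0, limma 3.58.1 (voom with quality weights), other terms and fewer libraries. Libraries of 1 group differed beyond sampling noise, with a chi-square per degree of freedom of 18.4 or more. The fit was tested on simulated counts for 19616 genes, with 50 changed at each fold: calls recovered 12% (1.5-fold), 48% (2-fold) and 86% (3-fold) of them for diet in females. For diet in males the shares were 12, 54 and 82%, and for sex in control pups 38, 52 and 74%.

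The members, lists and tests were chosen with earlier results of these data known, including that the pair female control 5 and 6 stood apart. Every member is accounted for. Those called in a diet comparison, Kit, Ly6a, Procr, Slamf1, Cd48, Cd34 and Hlf are described in full, and from the other lists up to 4 called genes each and the most abundant gene of lists of other cells. Some genes this rule takes are not reported here. Of the 138 list symbols 137 matched, and Ahsp did not. The most abundant genes of those lists were Col1a1 (346 CPM), Stab2 (26.5 CPM), Itga2b (76.2 CPM), Hbb-bs (1188 CPM), Ighm (625 CPM), Lck (54.6 CPM), Elane (1000.2 CPM), Vcam1 (197 CPM) and Prss34 (330.3 CPM), as means over 24 libraries. The mean member profile used for likeness centres each gene's log2 CPM over the 24 libraries.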

Additional observations from a re-analysis of the deposited data

Results flagged for a closer look

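Within a group of 6 libraries, 3 values of members lay far from the other 5 by Dixon's criterion for 6 values, out of 128 groups examined, where chance flags about 1 in 20. Ltb in Western-diet females was lowest in library 6 at 2.61 CPM, whereas the next lowest library had 29.9 CPM and the highest 93.2 CPM. Robo4 in control males was lowest in library 1 at 8.10 CPM, below the next at 16.1 CPM and the highest at 23.9 CPM. Ghr in Western-diet males was lowest in library 2 at 1.47 CPM, with the next at 2.54 CPM and the highest at 3.34 CPM. None of these 3 genes was called in a diet comparison.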

How the results depend on the processing

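Every member called in a diet comparison or in sex in controls kept the sign of its log2 fold change under each alternative run. In the female diet comparison, where 5 members were called, the number was 8 with no filter and in DESeq2, 3 in limma-voom, without batch 2 and with the replicate block in place of batch, 1 with only the 2 groups fitted, and 0 without a batch term, without batch 3, within batch 1, within batch 2 and without female control 5 and 6. It was 7 without batch 1 and 7 within batch 3, the batch of that pair (Plxdc2, Angpt1, Mecom, Cd34, Cd48, Ly6a and Myct1). Leaving out 1 library gave 2 to 7. It gave 2 without female control 6 and 3 without female control 1, 3 or 5, Western-diet female 5 or 6, or control male 3 or 5. Over all genes, 1064 were called with all libraries and 154 without that pair. In the average, with 2 called, the number was 6 with no filter, 5 in DESeq2 and without batch 1, 4 in limma-voom, 1 with the replicate block and without the pair, and 0 without a batch term or without batch 3, with 1 to 5 on leaving out 1 library. For sex in controls, with 2 called, it was 7 with no filter, 5 in DESeq2, 1 with the replicate block and without batch 1, and 0 without a batch term, without batch 2, without batch 3 and without the pair, with 0 to 2 on leaving out 1 library. For the male minus female difference it was 3 with no filter (Angpt1, Ly6a and Cd48) and 0 elsewhere. For sex in Western-diet pups it was 1 without batch 1 (Robo4) and 0 elsewhere. In males it was 0 throughout, and for batch it was 18 to 21. The cause of these shifts was not tested.

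Same-numbered libraries of different groups deviated together with correlations of -0.25 to 0.37 (median 0.13), beside a median of 0.12 for other numbers of the same batch. The main test did not use the numbers as pairs. Both medians pool library pairs within and across diets, so they cannot tell whether same-numbered libraries share a litter. Neo1 and Abcb1a had few counts, 5 to 45 and 12 to 76 a library. Of simulated 1.5-fold changes, 12% were recovered in either diet comparison. The simulated counts held few changed genes, no batch effect and no libraries that stood apart, so this share need not hold for the members. Members that did not pass may still have changed by 1.5-fold.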
